A study of Mus musculus with 12 samples.

Results

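The family of miRNAs built around miR-15 and miR-16 was followed through 2 days and nights in the liver of mice. Its 6 members on the array, mmu-miR-15a, mmu-miR-15b, mmu-miR-16, mmu-miR-195, mmu-miR-497 and mmu-miR-322, written below without the mouse prefix, were taken by the exact name of the array design without the star that marks the opposite arm. They are 6 of 611 mouse miRNA entries and 650 entries in all, and 6 of the 139 entries that could be tested because the scanner software called them detected on at least 6 arrays. Adult mice, with no strain, sex or genotype given in the labels, lived under lights that were on for 12 h and off for 12 h, fed and drank at will, and had no other treatment that the labels name. Collection began at ZT18 and ended at ZT62, at steps of 4 h, where zeitgeber time (ZT) counts hours from a lights-on. RNA of 2 livers was combined for each time and put on 1 array, giving 12 pools: 6 from the light (2, 6 and 10 h after lights on) and 6 from the dark (14, 18 and 22 h), with 2 arrays 24 h apart at each of 6 clock times, called cycle 1 and cycle 2 here. Each value therefore averages 2 animals, the p-values measure the spread between pools together with labelling and hybridisation, and the number of arrays limits their precision. For dark against light and for a 24-h rhythm, this spread also holds clock-time differences that the model leaves out. Differences between days and slides enter it too where the model has no term for them.

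MicroRNAs pair with messenger RNAs through their seed, bases 2 to 8 from the 5′ end, and lower the output of those messages. The miR-15/16 family is known for holding back cell division through cyclins, cyclin-dependent kinases, CHEK1 and the survival protein BCL2, and for a role in ending the proliferative phase of the newborn heart. In liver, miR-195 is known for being low in many liver cancers. Its members are made as pairs: miR-15a with one copy of miR-16, miR-15b with the other copy, and miR-195 with miR-497, while miR-322 (the mouse counterpart of human miR-424) lies beside miR-503. miR-15a, miR-15b and miR-16 are made in most cells, and miR-195 and miR-497 are best known from muscle, vessel wall and other mesenchymal cells.

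The mature sequences are shown because they define the family and because near-identical members could share a probe; the probe letters were not analysed here, so cross-hybridisation between such members was not tested. All 6 members were matched by name to RefSeq's table (build GRCm38.p6), and the capitals mark the seed.
miR-15a: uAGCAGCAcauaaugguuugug
miR-15b: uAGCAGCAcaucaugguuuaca
miR-16: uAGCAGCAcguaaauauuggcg
miR-195: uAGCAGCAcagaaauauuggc
miR-497: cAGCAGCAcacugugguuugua
miR-322: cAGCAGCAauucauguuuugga
The 6 members share 1 seed. Of 1679 mouse mature names in the table, 10 (0.596%) carry it at bases 2 to 8, the other 4 being miR-195b, miR-6342, miR-6353 and miR-6419, and 2 names, miR-103-3p and miR-107-3p, carry the same letters 1 base earlier. Beyond the seed the members differ. miR-16 and miR-195 differ at 2 of the 21 positions they have in common, counted from the 5′ end (G10A and U11G, miR-16 first), and share their last 10. miR-15a and miR-15b differ at 4 of 22 positions, 3 of them among the last 10. miR-195 and miR-497, although neighbours in the genome, differ at 9 of 21.

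The genes lie in 4 places. Mature miR-15a (chr14:61632075-61632096, minus strand) starts 139 bases from one copy of miR-16 (chr14:61631936-61631957), both within the noncoding gene Dleu2. Mature miR-15b (chr3:69009775-69009796, plus strand) starts 143 bases from the second copy of miR-16 (chr3:69009918-69009939), both within Smc4, which encodes a condensin subunit. miR-497 (chr11:70234730-70234751) and miR-195 (chr11:70235062-70235082) start 332 bases apart on the plus strand, and no other gene model of the table spans them. miR-322 (chrX:53054306-53054327, minus strand) lies in the noncoding gene C430049B03Rik together with miR-503 and miR-351. These are RefSeq coordinates; the array files give none.

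Liver RNA was recognisable on every array: 7 of 7 hepatocyte miRNAs were detected on all 12, and miR-122, the dominant hepatocyte miRNA, lay between 29460 and 33130 intensity units after scaling. Arrays were scaled to a common 75th percentile with factors from 0.9097 to 1.156. The 8 arrays from ZT18 to ZT46 share slide 1 and the 4 later ones share slide 2, so slide and cycle overlap in part.

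The scanner software called all 6 members detected on all 12 arrays. Each was read by 2 probes with 10 spots apiece, and the brighter probe stands for the member below. By its own spots the brighter probe of miR-322 was detected on 11 arrays, and that of each other member on all 12. Intensities of different members depend on their probes, so only changes of a member with time are compared. miR-16 was the steadiest, between 795.1 (ZT22) and 870.8 (ZT54) scaled intensity units with a median of 827.1, a 1.095-fold range. miR-15a lay between 682.6 (ZT30) and 776.2 (ZT22) with a median of 743.3, a 1.137-fold range. miR-15b spanned 1.27-fold, from 238.8 (ZT22) to 303.4 (ZT18). These are the members made in most cells, and the ZT22 array was the highest for miR-15a and the lowest for miR-15b and miR-16. The chromosome 11 pair moved more. miR-195 ran from 96.24 (ZT50) to 134.7 (ZT22), a 1.4-fold range, and miR-497 from 78.09 (ZT50) to 110.0 (ZT22), a 1.409-fold range. Both were lowest on the same 2 arrays, ZT26 and ZT50, which lie 24 h apart. miR-322 was dim, between 34.61 (ZT26) and 42.46 (ZT34) against a floor of 22.18 to which lower values were raised.

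On the log2 scale the SD over 12 arrays was 0.15 for miR-195, 0.154 for miR-497, 0.0991 for miR-15b, 0.103 for miR-322, 0.0511 for miR-15a and 0.0401 for miR-16. The median over the family was 0.101, beside 0.103 over all 139 tested entries. Over the 109 of them never at the floor, as the members are, it was 0.0951. Of all 139 tested entries, 6.47% had an SD no larger than that of miR-16 and 9.35% one no larger than that of miR-15a, against 64% for miR-195 and 66.9% for miR-497.

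**Figure D1:**
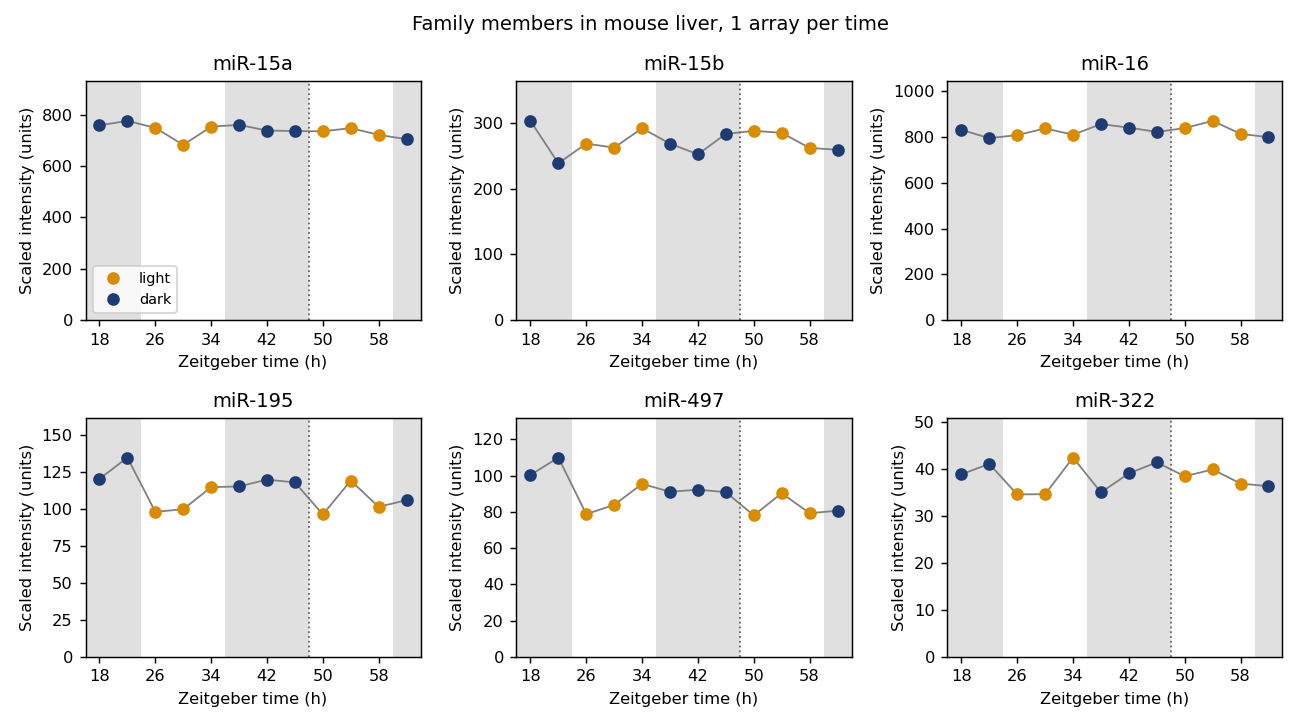
Scaled intensity (units, linear axis from 0) of the brighter probe of each family member against zeitgeber time (h), 1 array of 2 pooled livers per time; grey bands are dark phases, colours mark light and dark arrays, and the dotted line separates the 8 arrays of slide 1 from the 4 of slide 2. miR-16 stays between 795.1 and 870.8, while miR-195 and miR-497 peak together at ZT22 (134.7 and 110.0) and are both lowest at ZT26 and ZT50.

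The spots show how much of this spread could come from differences between spots within an array. For miR-195 the median standard error of a probe mean from its own spots was 2.27%, against a coefficient of variation over arrays of 10.4%, and for its dimmer probe 2.47% against 11.3%. For miR-16 the values were 1.71% and 2.79%, and for miR-322 4.09% and 7.14%. The spread over arrays was 4.58 times the spot error for miR-195 and 4.43 times for miR-15b. It was 4.12 times for miR-15a, 3.88 for miR-497, 1.75 for miR-322 and 1.64 for miR-16. Spots are repeats within an array and say nothing of labelling, of hybridisation and slide differences between arrays, or of the livers. A second probe gave a check that did not share spots, but did share the RNA, labelling, hybridisation and scaling of its array. The 2 probes of miR-195 followed each other over 12 arrays with r = 0.956 (permutation p = 2e-05, adjusted over 6 members 0.00012; rho = 0.909, p = 0.00012; r = 0.95 without the 2 arrays farthest from the median; r = 0.981 on slide 1). For miR-15a r was 0.924 (p = 8e-05; rho = 0.779, p = 0.0038; 0.714 without 2 arrays; 0.959 on slide 1) and for miR-15b 0.879 (p = 0.00011; rho = 0.916, p = 4e-05; 0.756 without 2 arrays; 0.95 on slide 1), with permutation p adjusted to 0.00022 for both. The probes of miR-16, miR-497 and miR-322 did not pass (r = 0.552, 0.43 and 0.37, permutation p = 0.0626, 0.163 and 0.244; rho = 0.448, 0.273 and 0.315, p = 0.149, 0.392 and 0.319). miR-16 varied little to begin with, the dimmer miR-497 probe averaged 34.89 units and was detected on 11 arrays, and that of miR-322 averaged 28.0 and was detected on 8.

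The opposite arms and cluster neighbours were mostly below detection. Of 16 such entries listed, 13 are on the array and 12 of these were detected on no array: miR-15a*, miR-15b*, miR-16*, miR-322*, miR-503, miR-503*, miR-351, both arms of miR-542, both arms of miR-450a and miR-450b-3p. miR-503, whose hairpin lies beside that of miR-322, reached at most 3.258 scaled units before the floor was applied. miR-450b-5p was called detected on 1 array and reached 30.62. No entry of the array carries the names miR-195*, miR-497* or miR-424.

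The first comparison asked whether the family follows a 24-h rhythm, the subject named in the title of the series. A single 24-h wave was fitted to each entry in limma, as the sum of sine and cosine terms. The fitted peak-to-trough fold was largest for miR-195, 1.17 with an upper 95% limit of 1.45 and a fitted maximum 18.4 h after lights on, and for miR-497, 1.16 with an upper limit of 1.46 and a maximum at 18.8 h. It was 1.05 (upper limit 1.25) for miR-322, 1.04 (upper limit 1.13) for miR-15a and 1.03 (upper limit 1.22) for miR-15b. For miR-16 it was 1.01 with an upper limit of 1.09, at the scaling used. These sizes depended on the scaling: with arrays scaled on all probes the fold was 1.33 for miR-16, 1.39 for miR-15a, 1.57 for miR-195 and 1.54 for miR-497, beside a median of 1.31 over all tested entries. With normexp it was 1.65 for miR-322 and 1.46 for miR-497, beside a median of 1.52, and no member passed in either. None of the 6 passed: 0 of 139 entries (0%) had an adjusted p under 0.05 in limma, and 5 (3.6%) had an unadjusted p under 0.05, none of them a member. The adjusted p was 0.957 for miR-15a, miR-195 and miR-497 and 0.993 for the other 3. Permuting the 12 time labels gave an adjusted p of 1 for every member and unadjusted p-values from 0.174 (miR-195) to 0.878 (miR-15b). The median fold was 1.05 over the family and 1.08 over all tested entries.

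Levels in the dark, when mice are active and feed, were then set against the light. miR-195 measured 96.24 to 119.1 units on the 6 light arrays (median 100.6) and 105.9 to 134.7 on the 6 dark arrays (median 118.8). All 6 dark arrays stood above the light mean, 3 of them above every light array, and the groups overlapped through the light ZT54 (119.1) and ZT34 (114.7) arrays. The log2 means (± SD, n = 6 each) were 6.71 ± 0.13 by light and 6.89 ± 0.11 by dark. The dark arrays were thus 1.14-fold above the light ones (95% interval 1.02 to 1.26), with a limma adjusted p = 0.498 over 139 entries (unadjusted 0.0215). miR-497 measured 78.09 to 95.48 units in the light (median 81.6) and 80.63 to 110.0 in the dark (median 91.7). Of its 6 dark arrays 5 stood above the light mean, and 2 stood above every light array. Its log2 means were 6.39 ± 0.12 and 6.55 ± 0.15 (SD, n = 6 each). That is a 1.12-fold difference (95% interval 0.992 to 1.26; limma adjusted p = 0.602). The dimmer probes gave like differences, 0.20 log2 units for miR-195 and 0.18 for miR-497, against 0.18 and 0.16 for the brighter ones.

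The other 4 members had dark over light folds near 1. The fold was 1.02 for miR-15a (95% interval 0.975 to 1.07), 0.966 for miR-15b (0.887 to 1.05), 0.993 for miR-16 (0.958 to 1.03) and 1.02 for miR-322 (0.933 to 1.12). After adjustment limma called 0 of the 139 (0%). Before adjustment 11 (7.91%) fell below 0.05, of which 3 were higher (2.16%) and 8 lower (5.76%) in the dark. The light and dark arrays did not overlap at all for 1 entry of the 139 (0.719%), which was no member. miR-195 was 1 of the 3 higher ones and had the 6th smallest p of the 139. The median difference was 0.03 log2 units over the family, with 4 members higher and 2 lower, and -0.02 over all tested entries, with 47 higher and 92 lower. Blocking on the slide gave differences of 0.16 for miR-195 and 0.11 for miR-497, and slide 1 alone gave 0.22 and 0.17; slide 2 holds 1 dark array. With another background correction (normexp) the signs turned, to -0.19 for miR-195 and -0.26 for miR-497, while the median of all entries moved to -0.36. Relative to that median miR-195 and miR-497 were at 0.17 and 0.10. On the same measure miR-15a was at 0.40, miR-16 at 0.38, miR-15b at 0.17 and miR-322 at -0.06. With normexp the chromosome 11 pair was thus not the highest of the family in the dark.

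**Figure D2:**
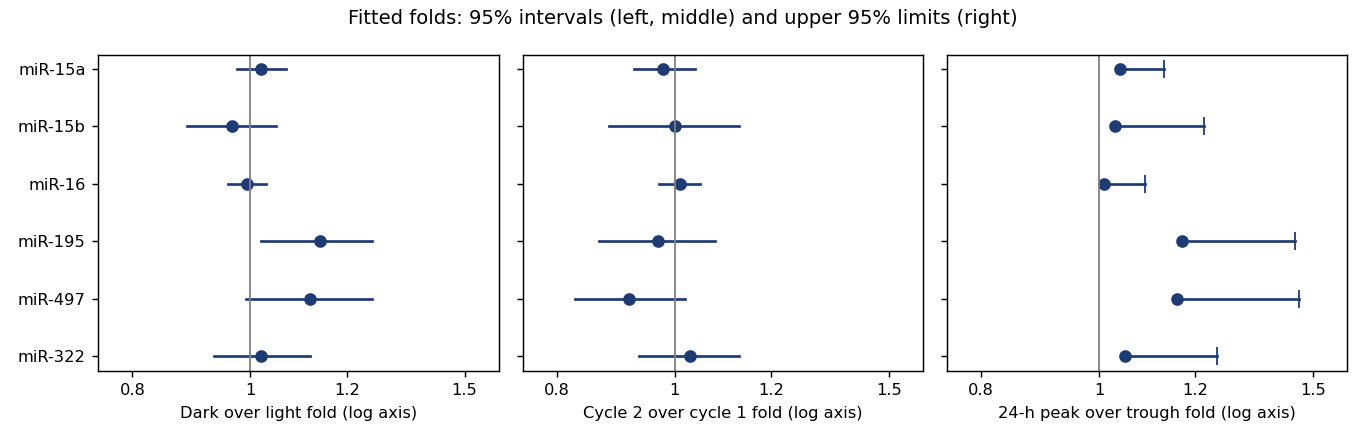
Fitted folds of the 6 members on log axes: dark over light and cycle 2 over cycle 1 with 95% intervals, and the 24-h peak over trough fold with a line to its upper 95% limit, each from limma on 12 arrays. The dark over light interval of miR-195 (1.02 to 1.26) lies above 1, that of miR-497 (0.992 to 1.26) reaches just below 1, and no member passed the adjusted test.

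Because every such value rests on the scaling between arrays, members were also compared as ratios within an array. The scaling cancels in these ratios, but the background correction does not. The log2 ratio of miR-195 over miR-497 had an SD of 0.0534 over the 12 arrays, the smallest of the 15 pairs, although their own SDs were 0.15 and 0.154. The log2 ratio of miR-16 over miR-195 (mean ± SD, n = 6 each) was 2.99 ± 0.12 on light arrays and 2.80 ± 0.13 on dark ones, and 6 of 6 dark arrays lay below the light mean. An exact two-sided permutation test gave p = 0.0238, and 0.0779 after adjustment over 15 pairs. The ratio of miR-15b over miR-195 did not pass either, with a dark over light fold of 0.851 and 0 of 6 dark arrays above the light mean (exact p = 0.0108, adjusted 0.0779). That of miR-195 over miR-322 had a fold of 1.11, with 6 of 6 dark arrays above the light mean (exact p = 0.013, adjusted 0.0779). miR-15a over miR-195 (0.898) and miR-15b over miR-497 (0.866) shared that adjusted value. For miR-15a over miR-16 the fold was 1.03 (exact p = 0.351) and for miR-195 over miR-497 it was 1.02 (exact p = 0.431). None of the 15 passed after adjustment. These ratios were chosen with the single values in view. With normexp the dark minus light difference was 0.021 log2 units for miR-16, 0.04 for miR-15a and -0.193 for miR-195. The ratios of miR-16 and of miR-15a over miR-195 thus turned, to higher in the dark. That of miR-195 over miR-322 kept its direction, miR-322 being at -0.424.

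By clock time, miR-195 averaged 6.60 ± 0.0184 log2 units at 2 h after lights on, 6.77 ± 0.18 at 6 h, 6.75 ± 0.13 at 10 h, 6.79 ± 0.0855 at 14 h, 6.91 ± 0.00453 at 18 h and 6.98 ± 0.14 at 22 h (SD, n = 2 each). Its lowest and highest clock times were neighbours across the change from dark to light. miR-497 was also lowest at 2 h and highest at 22 h, from 6.29 ± 0.00896 at 2 h to 6.64 ± 0.195 at 22 h (SD, n = 2 each). The high at 22 h came from the ZT22 array of cycle 1. In cycle 2 both were highest at ZT42, 18 h after lights on (119.8 units for miR-195 and 92.28 for miR-497). The ZT46 array, at 22 h, gave 117.9 and 90.89, beside 119.1 and 90.31 on the light ZT54 array. The clock-time means spanned 1.3-fold for miR-195 and 1.28-fold for miR-497, beside 1.16-fold for miR-322, 1.07-fold for miR-15b and 1.06-fold for miR-15a and miR-16. limma's F test over 6 clock times gave an adjusted p of 0.805 for miR-16, miR-195, miR-497 and miR-322, 0.901 for miR-15a and 0.993 for miR-15b. It called 0 of 139 entries (0%) after adjustment and 6 (4.32%) at an unadjusted p under 0.05, none of them a member. The median span was 1.11-fold over the family and 1.15-fold over all tested entries.

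A daily profile should return on the second day, so each member's 6 clock times in cycle 1 were set against the same 6 in cycle 2. The correlation was positive for miR-497 (r = 0.529, rho = 0.714, exact permutation p = 0.274 and 0.136) and miR-195 (r = 0.44, rho = 0.543, exact p = 0.354 and 0.297). It was near 0 for miR-16 (r = -0.0236, rho = -0.0286, exact p = 0.978 and 1) and miR-322 (r = 0.14, rho = 0.0286, exact p = 0.792 and 1), and negative for miR-15a (r = -0.498, rho = -0.371, exact p = 0.247 and 0.497) and miR-15b (r = -0.743, rho = -0.486, exact p = 0.104 and 0.356). None passed, the adjusted p over 6 members being 0.531 for miR-15a, miR-15b, miR-195 and miR-497, 0.95 for miR-322 and 0.978 for miR-16. Without the 2 clock times farthest from the cycle 1 median, r was -0.303 for miR-195 and -0.033 for miR-497 over the 4 left, so their positive values rested on those times. For miR-16 the same step gave r = 0.783, for miR-322 0.202, for miR-15a -0.505 and for miR-15b -0.574, so the value near 0 of miR-16 rested on its 2 farthest times as well.

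Within cycle 1 miR-195 was 0.25 log2 units higher in the dark and within cycle 2 0.12 (3 dark against 3 light arrays each). For miR-497 the differences were 0.23 and 0.09, for miR-15a 0.07 and -0.02, and for miR-16 0.02 and -0.04. The interaction of lights and cycle in limma had an adjusted p of 0.951 for miR-15a, miR-16, miR-195 and miR-497, 0.953 for miR-15b and 0.972 for miR-322. It called 0 of 139 entries (0%). Before adjustment 3 (2.16%) fell below 0.05, 2 with a larger (1.44%) and 1 with a smaller (0.719%) dark minus light difference in cycle 2, and none was a member.

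Cycle 2 over cycle 1 folds, with clock time in the model, were 0.979 for miR-15a, 1.00 for miR-15b, 1.01 for miR-16, 0.969 for miR-195 and 1.03 for miR-322. miR-497 was the member farthest from 1, at 0.917 (95% interval 0.828 to 1.02; limma adjusted p = 0.866), lower in cycle 2 for 5 of 6 clock times. Its median was 91.7 units on slide 1 and 79.98 on slide 2, and cycle 2 holds all 4 arrays of slide 2, so slide and cycle cannot be told apart for those clock times. The dimmer miR-497 probe gave a cycle difference of 0.02 log2 units against -0.13 for the brighter one. limma called 0 of 139 entries (0%). The 5 (3.6%) that fell below 0.05 before adjustment all had the higher estimate in cycle 2, and none was a member.

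The members were then compared with each other across the 12 arrays, over 15 pairs. miR-195 and miR-497, the neighbours on chromosome 11, rose and fell together with r = 0.939 (permutation p = 9e-05, adjusted over 15 pairs 0.00135) and rho = 0.881 (p = 0.00041, adjusted 0.00615). r was 0.914 without the 2 arrays farthest from the median of miR-195, 0.907 without ZT22, 0.943 within the 8 arrays of slide 1 and 0.918 after the light and dark means were taken off. Slide 2 has too few arrays for a value. With the dimmer probe of miR-497, which lies nearer to background, r with miR-195 was 0.502, and with the dimmer probes of both it was 0.537 (adjusted permutation p = 0.431). No other pair passed with the scaling used.

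miR-15a and miR-16, which share a primary transcript on chromosome 14, had r = 0.0065 (permutation p = 0.98; rho = -0.049, p = 0.89; -0.145 without 2 arrays; -0.355 on slide 1), and miR-15b and miR-16, which share one on chromosome 3, had r = 0.364 (p = 0.24; rho = 0.287, p = 0.37; 0.152 without 2 arrays; 0.156 on slide 1). miR-16 has 2 gene copies, and its probes cannot tell them apart because their mature letters are the same. It also varied little over the arrays (log2 SD 0.0401), and its 2 probes followed each other only loosely (r = 0.552). An r near 0 with miR-16 therefore cannot tell a missing relation from too little variation. miR-16 and miR-195, the pair closest in sequence, had r = 0.0146 (permutation p = 0.96; rho = 0.0559, p = 0.87; 0.24 without 2 arrays; -0.204 on slide 1). miR-15a had r = 0.639 with miR-195 and 0.645 with miR-497, and miR-322 had r = 0.647 and 0.618 with them; these 4 pairs had adjusted permutation p-values from 0.0924 to 0.0957. The correlations depended on the scaling. Of the 1857 probes 157 were detected on all arrays, and scaling on all probes also takes in the rest. With arrays scaled on all probes r was 0.991 for miR-15a with miR-16, 0.983 for miR-15b with miR-16 and 0.965 for miR-16 with miR-195, and without scaling it was 0.853, 0.608 and 0.686. In counts, all 15 pairs passed when arrays were scaled on all probes, 9 without scaling and 4 with normexp. The pair miR-195 and miR-497 passed in each of these and with quantile normalization (r = 0.788). The difference between 2 correlations was not tested.

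**Figure D3:**
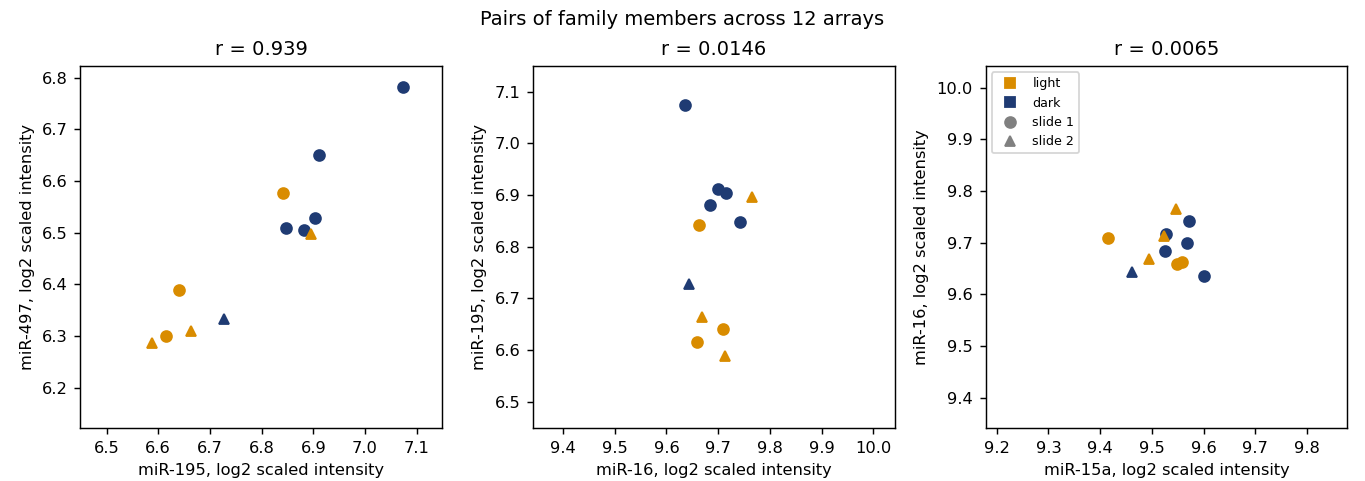
log2 scaled intensity of 3 pairs of members on the 12 arrays, with axes of equal span; colours mark light and dark, circles slide 1 and triangles slide 2. miR-497 climbs with miR-195 (r = 0.939). For miR-16 r was 0.0146 with miR-195 and 0.0065 with miR-15a, but miR-16 itself varied little (log2 SD 0.0401).

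Entries outside the family with the most similar course over the 12 arrays were listed by Pearson r, as a description; all entries share the array scaling and hybridisation. Among 127 candidates, miR-497 was closest to miR-199a-3p (r = 0.878), a miRNA of mesenchymal and stellate cells, then miR-200b (0.81) and miR-338-3p (0.782). miR-195 was closest to miR-338-3p (0.781), miR-23a (0.754) and miR-26a (0.727). miR-15b was closest to miR-25 (0.823), miR-34a (0.775) and miR-202-3p (0.756), and miR-15a to miR-221 (0.7), let-7f (0.692) and miR-26b (0.687). miR-16 was closest to miR-425 (0.692), miR-106b (0.604) and miR-342-3p (0.592). miR-322 was closest to let-7a (0.944), miR-22 (0.889) and let-7d (0.866). miR-200b lay at the floor on 3 arrays, and miR-425 and miR-338-3p averaged only 26.09 and 26.74 units.

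Whole liver mixes cell types, and in pooled tissue fewer cells of a type and less RNA per cell cannot be told apart. Of 6 miRNAs listed for mesenchymal cells and smooth muscle, 4 were tested, and all 4 (miR-143, miR-199a-3p, miR-199a-5p and miR-199b*) were highest on the ZT22 array, where miR-195 and miR-497 were highest too. That array was not particular to them: 29 of the 139 tested entries (20.9%) were highest at ZT22, among them the hepatocyte miR-802 (89.53 units against medians of 27.31 in the light and 23.38 in the dark), miR-194 and miR-200b (49.51 units). The other 2 of the 6 listed lay at the floor on every array: miR-214 was called detected on 1 array and miR-145 on none. miR-143 ranged from 36.05 to 62.71 units and miR-199a-3p from 98.89 to 148.7. The summed level of the 4 lay between 198.7 and 231.9 in the light and reached 306.4 in the dark, where the lowest sum lay below every light one. The dark mean of all 4 exceeded the light mean, by a median of 0.13 log2 units, but none passed or had an unadjusted p under 0.05. This rested largely on ZT22: without it the differences were 0.08 for miR-143, 0.03 for miR-199a-3p, -0.02 for miR-199a-5p and 0.06 for miR-199b*, with a median of 0.04, and the highest dark sum was 246.2. Without ZT22 the dark minus light differences were 0.15 for miR-195 and 0.11 for miR-497. The part of these cells in the result was not tested. The 4 striated muscle miRNAs, miR-1, miR-133a, miR-133b and miR-206, were detected on no array.

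**Figure D4:**
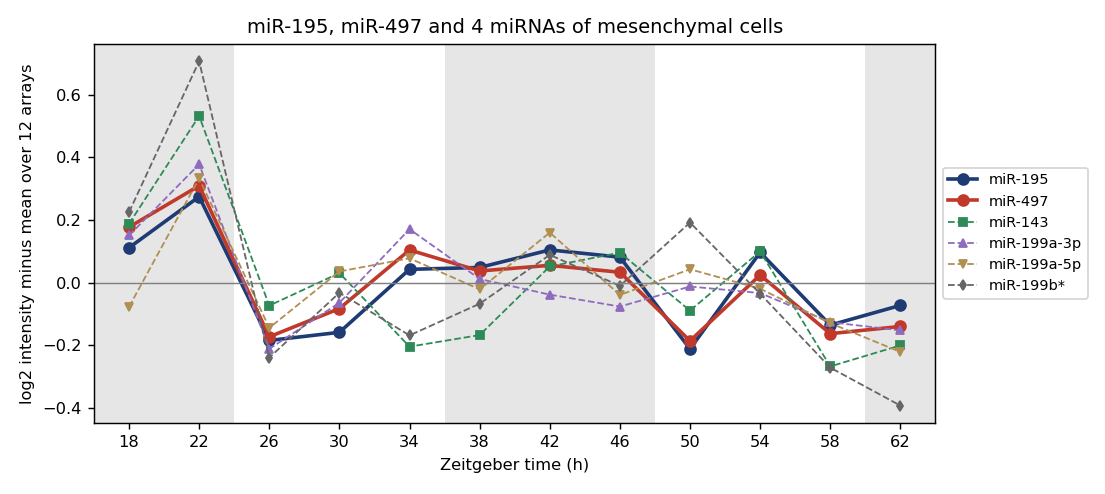
log2 intensity minus its mean over 12 arrays for miR-195, miR-497 and the 4 tested miRNAs of mesenchymal cells against zeitgeber time (h), with grey dark phases. All 6 are highest at ZT22, the array with the summed mesenchymal level of 306.4 units.

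miR-16 is also abundant in red blood cells. The red cell miRNA miR-451 ranged 1.95-fold, from 1341 units at ZT42 to 2614 at ZT50, and miR-144 ranged 2.53-fold. miR-16 stood at 841.2 and 839.1 units on those same ZT42 and ZT50 arrays, and its whole range was 1.095-fold. The third listed red cell miRNA, miR-486, was detected on 4 arrays and not tested. The summed red cell level lay between 1432 and 2788 in the light and between 1417 and 2486 in the dark. Of 6 leukocyte miRNAs, 4 were tested, and their summed level lay between 460.6 and 570.1 in the light and 460.5 and 542.0 in the dark, while miR-150 and miR-155 were detected on no array. The endothelial miR-126-3p and miR-126-5p had a summed level between 1346 and 1484 in the light and 1344 and 1480 in the dark. The 7 hepatocyte miRNAs summed to between 36060 and 39910 units in the light and 36230 and 39740 in the dark.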

How the data were processed

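Total RNA of 12 liver pools was labelled with Cy3 and put on 1-colour Agilent miRNA arrays. The deposited files hold linear spot intensities, background-subtracted and detrended by Agilent Feature Extraction (10.7.3.1 per the file headers, 9.5.3.1 per the submitters' processing notes), not scaled between arrays; the deposited series table equals them (largest difference 0). Control and outlier spots (3.823% to 6.938% of an array) were dropped, spots of a probe averaged, and arrays scaled to their 75th percentile over 157 probes detected on all arrays (over 50% of spots well above background). A floor of 22.18 units was set, log2 taken, and the brightest of an entry's probes used. No spot was saturated (0). The groups come from the collection times in the labels.

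Tests used limma 3.58.1 in R 4.3.3 with an intensity trend, Benjamini-Hochberg adjustment over 139 entries and a threshold of 0.05; correlations used 100000 permutations or exact enumeration. The tests were tried on simulated data with independent noise and planted changes larger than any fitted for a member. That trial says nothing of power at the sizes fitted here. All 6 members are named, with listed arms, neighbours and cell type miRNAs, and for each member the 3 other tested entries with the highest r. Members and lists were chosen with earlier results of these data known. Alternatives covered scaling, background, filters, floor, probe, outlier spots, slide, cycle and single arrays; normexp used the median spot signal, the files holding no mean signal. The labels carry no replicate numbers; arrays 24 h apart were compared at the same clock time.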

Additional observations from a re-analysis of the deposited data

Results flagged for a closer look

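Of 24 combinations of a member with the 6 arrays of light, dark, cycle 1 or cycle 2, 1 held a sample far from the others. miR-15a at ZT30 measured 683 scaled units among the 6 arrays of cycle 1, where the next value was 749, the gap being 0.722 of the whole range on the log2 scale. Chance marks about 1 in 20 such groups.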

How the results depend on the processing

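In limma, 0 members passed under every alternative run of the 5 model tests. The pair miR-195 and miR-497 passed in every alternative run for it (r = 0.788 to 0.996) other than the dimmer probes (0.537). Scaling on all probes moved the median dark minus light difference of all entries to 0.377 log2 units and normexp moved it to -0.36; the cause of the changes below was not tested. The labels carry no replicate numbers to pair light with dark arrays; with cycle as a block the dark minus light difference was 0.183 for miR-195 and 0.158 for miR-497 (limma adjusted p = 0.518 for both), and 0 members passed. The 24-h difference (log2, peak minus trough) ranged over the alternatives without single arrays left out from 0.016 to 0.406 for miR-16, 0.048 to 0.471 for miR-15a, 0.044 to 0.382 for miR-15b, 0.197 to 0.65 for miR-195, 0.14 to 0.626 for miR-497 and 0.036 to 0.722 for miR-322. The dimmer probes, the scanner software's signal, the mesenchymal miRNAs without ZT22, the correlations with single arrays left out, across probes or within light and dark, and the within-array ratios were chosen after seeing the data. The interaction within slide 1 could not be fitted, slide 1 holding no light array of cycle 2.

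Dark minus light (log2) changed sign as follows. Scaled on all probes it was 0.38 for miR-15b and 0.419 for miR-16, and without scaling 0.011 and 0.051. For miR-16 it was 0.005 with quantile normalization, 0.021 with normexp, 0.018 on slide 1 and -0.021 to 0.004 when single arrays were left out. With normexp it was -0.193 for miR-195, -0.259 for miR-497 and -0.424 for miR-322. For miR-322 it was -0.02 with the mean of the probes, -0.093 with outlier spots kept, -0.072 with the dimmer probe and -0.002 with the scanner software's signal.

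Cycle 2 minus cycle 1 (log2) was -0.52 for miR-16 and -0.413 for miR-322 scaled on all probes, -0.032 and -0.007 without scaling, and -0.01 and -0.084 with quantile normalization. With normexp it was 0.151 for miR-15b, -0.014 for miR-16, 0.274 for miR-195 and 0.259 for miR-497. For miR-15b it was 0.018 with the mean of the probes, 0.037 with the dimmer probe, 0 with the software's signal and -0.05 to 0.052 when single arrays were left out. The dimmer probe of miR-497 gave 0.019.

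The day-to-day r was 0.0692 for miR-15a and 0.042 for miR-16 scaled on all probes, and 0.518 and 0.311 with quantile normalization. For miR-322 it was -0.401 without scaling. With normexp it was 0.273 for miR-15b and 0.148 for miR-16. For miR-16 and miR-322 it was 0.0971 and -0.00759 with the mean of the probes, 0.268 and -0.192 with the dimmer probe, and 0.256 and -0.226 with the software's signal; with outlier spots kept it was 0.126 for miR-16.

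Of 15 pairs of members, 1 passed, against 15 scaled on all probes, 9 without scaling, 4 with normexp, 0 with the dimmer probes and 1 to 3 when single arrays were left out (3 without ZT26). For miR-16 with miR-195 r was 0.965 scaled on all probes and 0.686 without scaling (adjusted permutation p = 3.46e-05 and 0.023), -0.208 with quantile normalization, -0.826 with normexp, -0.226 with the mean of the probes, -0.00144 with outlier spots kept, -0.341 with the dimmer probes, -0.139 with the software's signal, -0.204 on slide 1 and -0.132 to 0.373 when single arrays were left out. For miR-15b with miR-16 it was -0.719 with normexp. For miR-15a with miR-16 it was 0.991 scaled on all probes and 0.853 without scaling (adjusted permutation p = 1.5e-05 and 0.00213), -0.355 on slide 1, -0.145 without the 2 farthest arrays and -0.181 to 0.255 when single arrays were left out.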
